A study of Mus musculus with 2 samples.

Results

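The genes described here are 32 antiviral interferon-stimulated genes named as a set for their known role in the response to interferon. Of the 32, 30 had a row among the 32285 genes of the count matrix. Mx1 and Mx2 were not analysed here. Messenger RNA molecules (unique molecular identifiers, UMIs) of the 30 genes were summed per library and per cell class, and each class was defined by 1 gate gene.

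Type I and type III interferons are secreted when a cell senses foreign or misplaced nucleic acid. They bind receptors that signal through the kinases JAK1 and TYK2 and bring STAT2 and IRF9 into a complex that enters the nucleus. That complex binds a short promoter element, the interferon-stimulated response element, and switches on genes that degrade viral RNA, block translation or restrict virus entry and release. Interferon gamma acts through a different receptor and a different promoter element, the gamma-activated site. In tumours, the antiviral genes are widely used as a readout of interferon signalling in cancer cells and in infiltrating immune cells.

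The libraries came from tumours of 4T1 cells, a mouse mammary carcinoma line, grown orthotopically, in a mammary fat pad, in BALB/c females. The control library held tumours of 4T1 cells with a control guide RNA, and the knockout library held tumours of 4T1 cells with a guide against Kindlin-2 (K2-KO), the integrin adaptor encoded by Fermt2. The guides were in the implanted cells, and the labels name no edit of the host mice, which supplied the immune and stromal cells of both libraries. Tumours were excised at 150 mm3, digestion lasted 45 min, and living cells were separated by sorting into those with and without mCherry. The labels give neither the mice's age, the number of tumours pooled, nor the sorted fraction that was loaded.

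There was 1 library per group, so no difference below has a replicate check, and differences between the libraries cannot be told apart from differences between tumours. The intervals are exact 95% intervals that cover counting error only, and they are too narrow where 1 cell holds many of a gene's UMIs. The control library had 8038 barcodes and 214163620 UMIs, and the knockout library had 7250 barcodes and 180774106 UMIs. After filters and doublet removal, 7536 and 6744 cells were used, and 13 barcodes occurred in both libraries. Fermt2 was measured at 39.4 UMIs per 1000000 UMIs of the class (CPM) in Epcam-gated cells of the control library and at 18.2 CPM in those of the knockout library. A guide-made mutation need not remove the 3′ end that is counted, so the remaining Fermt2 UMIs do not check the edit itself. Fermt2 was also lower in fibroblasts of the knockout library, which the labels do not name as edited, at 464 and 289 CPM (log2 ratio -0.68 beside -1.12 in the Epcam gate).

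In 8 classes both libraries held at least 20 cells. The tumour class (Epcam, an epithelial adhesion protein) had 3176 control and 2157 knockout cells. The immune classes were macrophages (C1qa, 1375 and 1055 cells), monocytes (Ly6c2, 107 and 332), neutrophils (S100a8, 406 and 141), T cells (Cd3e, 490 and 754), NK cells (Ncr1, 110 and 399) and plasmacytoid dendritic cells (Siglech, 24 and 111). Fibroblasts (Col1a1) numbered 79 and 64. The Fscn1 gate for mature dendritic cells held 15 and 33 cells and was not compared. No gate was passed, or conflicting ones were, by 1754 control and 1698 knockout cells. In each of the 8 classes, the markers of its own type had the highest summed level of all marker lists in both libraries. Conflicting gates were excluded and gate genes were not taken out of these lists, so this order follows in part from the gating. Monocytes carried macrophage markers at 3925 and 3005 CPM beside 5186 and 4950 CPM of their own. Inside the Epcam gate, markers of normal mammary gland were at 45.1 CPM in the control and 256 CPM in the knockout library, and the cluster led by gland genes held 44 control and 116 knockout cells of the gate.

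In the other classes epithelial markers were measured at 0.995% to 7.68% of their tumour-cell level, and the part of free tumour RNA in these was not tested. Cells past the Epcam gate were excluded from these classes, so the shares may understate tumour RNA. At such shares, tumour-cell Isg15 would give 3.67 of the 94.7 CPM in control T cells and 4.54 of the 136 CPM in knockout T cells. No class is known to lack these genes, so a share of cells with a UMI has no empty class to be set against.

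The promoters were searched for elements that part of the genes share outside the counts. RefSeq start sites of the mouse genome build GRCm38.p6 were found for 24 of the 30 genes, with windows of 250 bases before to 50 bases after each start. The response element was searched as GAAANNGAAA on both strands, so that TTTCNNTTTC counts as the same element. It was present in 13 of 24 genes (54.2%), in 3.99% of all genes with a window and in 3.44% of all 32851 windows. The gamma-activated site TTCNNNGAA, whose reverse complement has the same letters, was present in 7 of 24 genes (29.2%), in 9.55% of all genes with a window and in 8.30% of all windows. The 13 genes with the element had a median tumour-cell log2 ratio (knockout over control) of 0.64, and the other 11 had 0.49. The ranges overlapped, from 0.15 to 1.51 with the element and from 0.19 to 0.77 without it. Stretches of 50 bases around the element follow for the genes on which the tumour-cell results turn. Capitals mark the match nearest the start site, each stretch reads along its gene's strand, and Ifit3 and Ifit3b are shown together because their stretches are identical. The windows of Ifit1, Ifit3 and Ifit3b hold 2 matches each and that of Isg15 holds 3, and a further match within a printed stretch is left in lower case.

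Ifit3 (chr19:34583387-34583436, + strand): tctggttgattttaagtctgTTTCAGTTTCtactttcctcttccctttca
Ifit3b (chr19:34607783-34607832, + strand): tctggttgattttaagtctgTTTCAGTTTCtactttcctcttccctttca
Ifit1 (chr19:34640784-34640833, + strand): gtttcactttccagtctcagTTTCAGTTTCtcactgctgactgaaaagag
Isg15 (chr4:156200855-156200904, - strand): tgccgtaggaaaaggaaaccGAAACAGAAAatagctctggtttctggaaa
Rsad2 (chr12:26456543-26456592, - strand): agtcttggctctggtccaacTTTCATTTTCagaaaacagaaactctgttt
Oas3 (chr5:120777705-120777754, - strand): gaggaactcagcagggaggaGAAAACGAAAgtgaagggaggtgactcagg
Stat2 (chr10:128270256-128270305, + strand): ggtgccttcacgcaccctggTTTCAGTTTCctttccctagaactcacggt

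The same 10 letters, TTTCAGTTTC, stand in capitals in Ifit1, Ifit3, Ifit3b and Stat2. A match describes the letters of the window and does not show binding. The 4 Ifit genes lie together on chromosome 19 and the 5 Oas and Oasl genes on chromosome 5. Ifit3 and Ifit3b are close copies: 51.2% of the 50-base stretches of Ifit3's transcripts occur in Ifit3b's, so reads could be divided between them, and their separate values are uncertain. Within the last 500 bases, where 3′ reads arise, 14.9% of Ifit3's stretches were shared with Ifit3b. Oas1a shares 56.9% of its stretches with Oas1g and carries the same limit.

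In tumour cells, 15 of the 30 genes were at least 1.5-fold higher in the knockout library and none was 1.5-fold lower. Among all genes with at least 20 UMIs in tumour cells, 20.2% were that much higher and 6.05% lower. Among the better measured genes, with at least as many UMIs as the least abundant member, 9.35% were that much higher. The median log2 ratio of the 30 genes was 0.56, against 0.14 over all genes tested. Once the ratios were centred on the median gene, 7 of the 30 were past 1.5-fold. Of the 30, 29 were above 0 as measured and 27 when centred, where Rtp4, Usp18 and Parp14 were below it.

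The IFIT proteins bind foreign RNA that lacks the host's cap marks and block its translation. Ifit3 was measured at 11.7 CPM in control and 33.2 CPM in knockout tumour cells, a log2 ratio of 1.51 (interval 1.42 to 1.59) and the highest of the set. Its copy Ifit3b was at 6.07 and 13.9 CPM (log2 ratio 1.19). Ifit1 was at 23.3 and 37.6 CPM (0.69), and Ifit2 at 6.45 and 9.80 CPM (0.60). All 4 were thus higher in the knockout library, and Ifit3 remained 2.84-fold higher with counts of 1597 and 3578 UMIs.

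The oligoadenylate synthetases sense double-stranded RNA and activate the ribonuclease RNase L, while the OAS-like proteins modulate RNA sensing and interferon production. Oas2 was at 3.76 CPM in control and 7.41 CPM in knockout tumour cells (log2 ratio 0.98). Oas3 was at 6.54 and 12.2 CPM (0.90), and Oasl1, a translational repressor of Irf7, at 13.1 and 21.4 CPM (0.71). Oasl2 stood lower in the order at 59.3 and 82.1 CPM (0.47), and Oas1a lower still at 28.8 and 33.6 CPM (0.22, interval 0.16 to 0.29). The family was therefore not uniform: Oas2 and Oas3 were past 1.5-fold and Oas1a was 1.17-fold higher.

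Isg15 encodes a ubiquitin-like protein that is conjugated to newly made proteins, and Usp18 removes it and also restrains the type I receptor. Isg15 was at 142 CPM in control and 221 CPM in knockout tumour cells (0.64, interval 0.61 to 0.67). Usp18 was at 25.5 and 25.6 CPM (0.01, interval -0.06 to 0.08), and centring put it at -0.13. Herc6, the main mouse ligase for ISG15, was at 43.1 and 73.3 CPM (0.77). Transcripts of the conjugated protein and of its ligase were thus higher, and those of the protease differed by less than their counting error.

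Among the factors that carry or amplify the signal, Stat2 and Irf7 were higher and Irf9 less so. Stat2 was at 36.2 and 60.1 CPM (0.73, interval 0.68 to 0.79). Irf7, which drives interferon alpha genes, was at 37.1 and 57.7 CPM (0.64). Irf9, the DNA-binding part of the complex, was at 32.7 and 37.4 CPM (0.19, interval 0.13 to 0.25). The RNA sensor regulator Dhx58 (LGP2) was at 9.61 and 15.2 CPM (0.66).

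Effectors that act on viral RNA, nucleotides or membranes covered the whole range. Eif2ak2, the kinase PKR that stops translation on double-stranded RNA, was at 59.1 and 66.2 CPM (0.16). The exonuclease Isg20 was at 47.3 and 66.6 CPM (0.49). Rsad2 (viperin), which makes a chain-terminating nucleotide, was at 10.8 and 13.9 CPM (0.37), and its neighbour Cmpk2, a nucleotide kinase, at 5.12 and 6.97 CPM (0.44). A single cell held 5.56% of the Rsad2 UMIs, and Rsad2 was not higher in the knockout library when cells were thinned to 2000 UMIs or tumour clusters weighted equally. Bst2 (tetherin), which holds budding virus at the cell surface, was at 417 and 545 CPM (0.39). Ifitm3, which blocks virus entry from endosomes, was at 1778 and 1968 CPM (0.15, interval 0.14 to 0.15).

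The other members have less settled or more varied roles. Slfn5, of the Schlafen family, had the fewest UMIs (140 and 201, log2 ratio 0.86, interval 0.55 to 1.19). Ifi44 was at 47.8 and 76.9 CPM (0.68), the mitochondrial protein gene Ifi27l2a at 38.4 and 61.1 CPM (0.67), and Trim30a, a restrainer of innate signalling, at 30.2 and 43.3 CPM (0.52). Ifi35 was at 72.7 and 96.3 CPM (0.40), Xaf1, a pro-apoptotic factor, at 60.01 and 68.4 CPM (0.19), and Parp14, an ADP-ribosyltransferase, at 73.4 and 80.1 CPM (0.13). Rtp4 was the only member lower in knockout tumour cells, at 56.1 and 53.3 CPM (-0.08, interval -0.13 to -0.03).

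**Figure D1:**
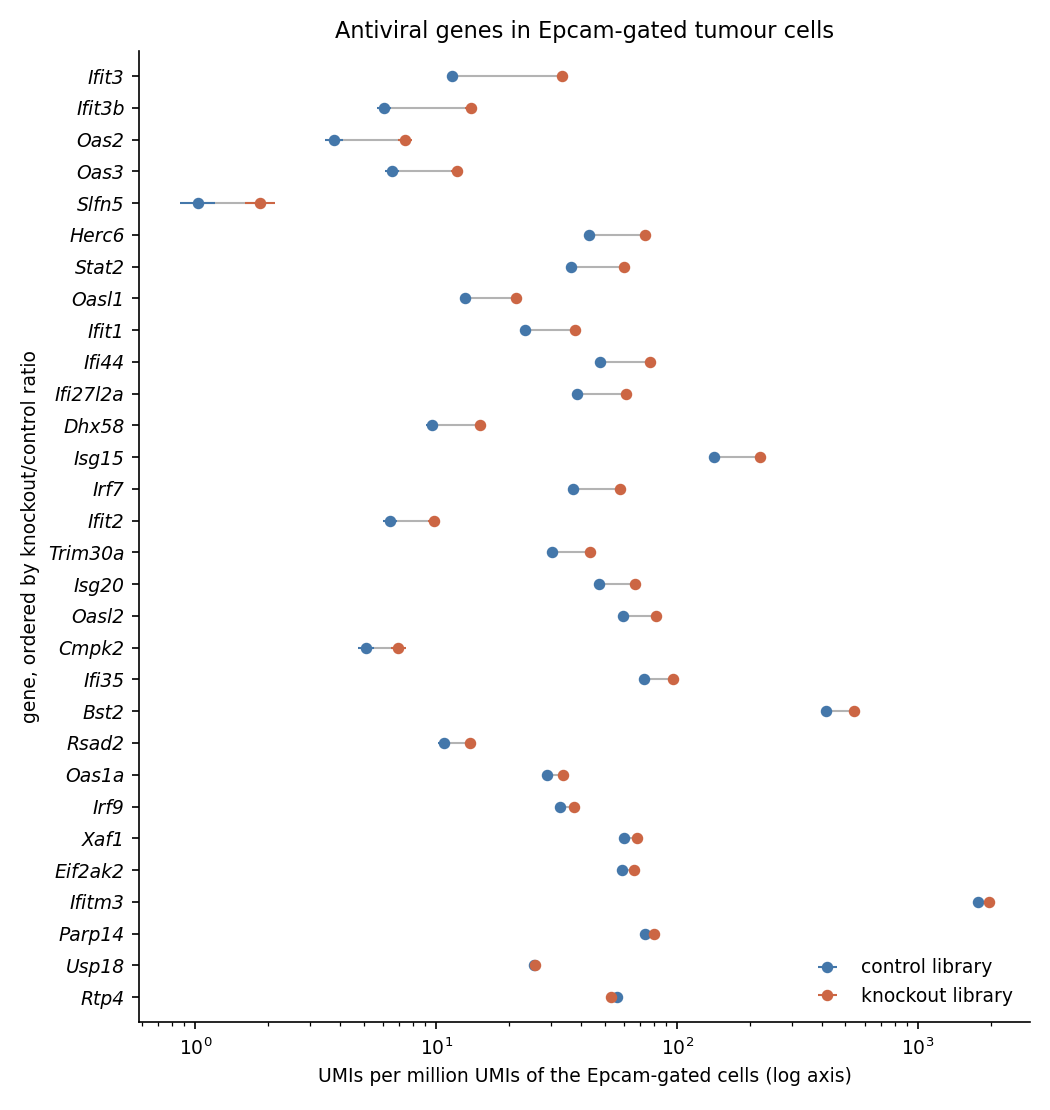
Level in CPM (log axis) of each of the 30 genes in Epcam-gated cells of the control and knockout libraries, with exact 95% Poisson intervals (counting error only), ordered by the ratio of the libraries. The knockout point lies to the right in 29 genes, farthest for Ifit3 (11.7 against 33.2 CPM), and the points of Usp18 nearly coincide.

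The median log2 ratio of the members was also above 0 inside the 5 tumour-cell clusters, but several genes differed less there than in the pooled cells. The libraries filled these clusters unequally: cluster 2, led by Mt2 and Ibsp, held 28.4% of the tumour cells in the control and 3.89% in the knockout library, and cluster 1, led by Sema3e, held 11.7% and 37.7%. Median log2 ratios of the members were 0.28 in cluster 0 (led by the cell-cycle genes Hist1h1b and Cenpf), 0.33 in cluster 1, 0.31 in cluster 2, 0.43 in cluster 3 (led by Ghr) and 0.60 in cluster 5 (led by Msmp and Slpi). Genes at least 1.5-fold higher numbered 1 of 30 in cluster 0, where 1 was lower, and 9 of 30 in cluster 1. They numbered 7 of 29 in cluster 2, 9 of 29 in cluster 3 and 15 of 30 in cluster 5. The share over all genes was not computed within clusters. Ifit3 was higher in the knockout library in all 5 clusters, at log2 ratios from 0.46 in cluster 0 to 1.82 in cluster 3. Stat2 was higher in all 5 as well, from 0.19 in cluster 2 to 1.24 in cluster 5.

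With the 5 clusters given equal weight in both libraries, 9 of the 30 genes were at least 1.5-fold higher and the median was 0.40. Rsad2 turned to -0.19 under that weighting, since it was lower in the knockout library in 4 of the 5 clusters, and Rtp4 was at -0.13. Ifit3 was at 1.3, Oas2 at 0.78, Herc6 at 0.76, Irf7 at 0.73 and Stat2 at 0.72. Clusters were made from the same cells, with these genes among those that could shape them.

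Cells led by gland genes inside the gate lacked the difference: in cluster 18, led by the gland genes Wfdc18 and Prlr, the median log2 ratio was -0.10. Tumour-gated cells inside the 5 tumour clusters alone gave 14 genes past 1.5-fold and a median of 0.57. Macrophage markers in the Epcam gate stood at 0.198% of their macrophage level in the control and 0.338% in the knockout library. At those shares macrophage Isg15 would give 0.264 and 1.06 of the 142 and 221 CPM measured in tumour cells. Cells past the C1qa gate were excluded from this class, so the shares may understate macrophage RNA.

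The higher level was spread over the tumour cells rather than held by a few. For this, each cell was thinned at random to 10000 UMIs, which left out 89 control and 42 knockout cells as too shallow. UMIs were then summed over 27 members, without Bst2, Ifitm3 and Ifi27l2a, which are abundant in many cells. The median cell held 6 such UMIs in the control and 10 in the knockout library. The 10th percentile was 2 and 3 UMIs, the 25th 4 and 6, the 75th 11 and 16, and the 90th 19 and 27, so the knockout distribution lay above the control at each of these points. Of control cells 49.4% were above 6 UMIs, and of knockout cells 69.6% were. Cells with none of the 27 genes made up 1.36% and 1.18%.

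Cells with very high sums existed in both libraries and held similar shares of the UMIs. The 10% of cells with the highest sums held 36.1% of the UMIs in the control and 33.5% in the knockout library. The ratio of the mean sums was 1.42, or 1.47 without the top 5% of cells of each library and 1.499 without the top 50%. A randomly drawn knockout cell had the higher sum in 63.1% of pairs with a control cell when ties were split evenly. The distributions therefore overlapped widely. At 2000 UMIs per cell that share was 59.8%.

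**Figure D2:**
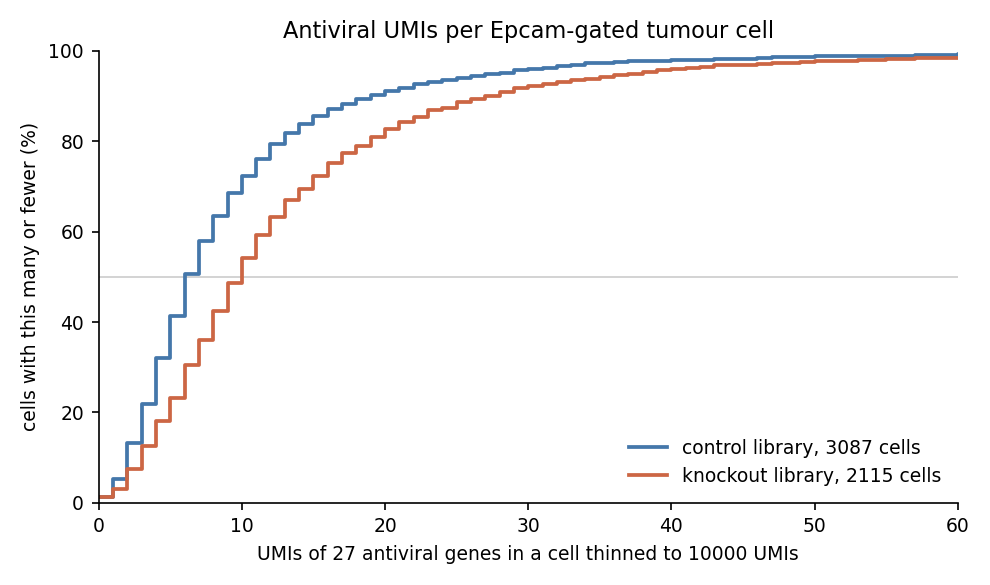
Cumulative share of Epcam-gated cells (%) against the number of UMIs of 27 antiviral genes in each cell after thinning to 10000 UMIs, for 3087 control and 2115 knockout cells. The knockout curve lies to the right along its length, with medians of 6 and 10 UMIs, and the axis ends at 60 UMIs.

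More cells had a detected transcript of most of these genes, and for Ifit3 the number per detected cell differed less. Cells without a UMI are left out of that number, so for rare transcripts a higher level per cell also appears as more detected cells. Whether more cells expressed these genes was not tested. At 10000 UMIs per cell Ifit3 was detected in 6.03% of control tumour cells (Clopper-Pearson interval 5.21 to 6.92) and in 15.5% of knockout cells (13.9 to 17.1). Cells with an Ifit3 UMI held on average 1.94 and 2.40 of them. Unthinned cells, with a median of 37026 UMIs in the control and 41234 in the knockout library, gave 13.9% and 30.8%. Isg15 was detected in 47.0% and 61.04% of thinned cells, with 3.02 and 3.85 UMIs per detected cell. Stat2 was detected in 26.2% and 39.8%, whereas Usp18 was detected in 18.7% and 17.4%. The median tumour cell had 5 different members detected in the control and 7 in the knockout library, and 14.9% and 27.4% of cells had at least 10.

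**Figure D3:**
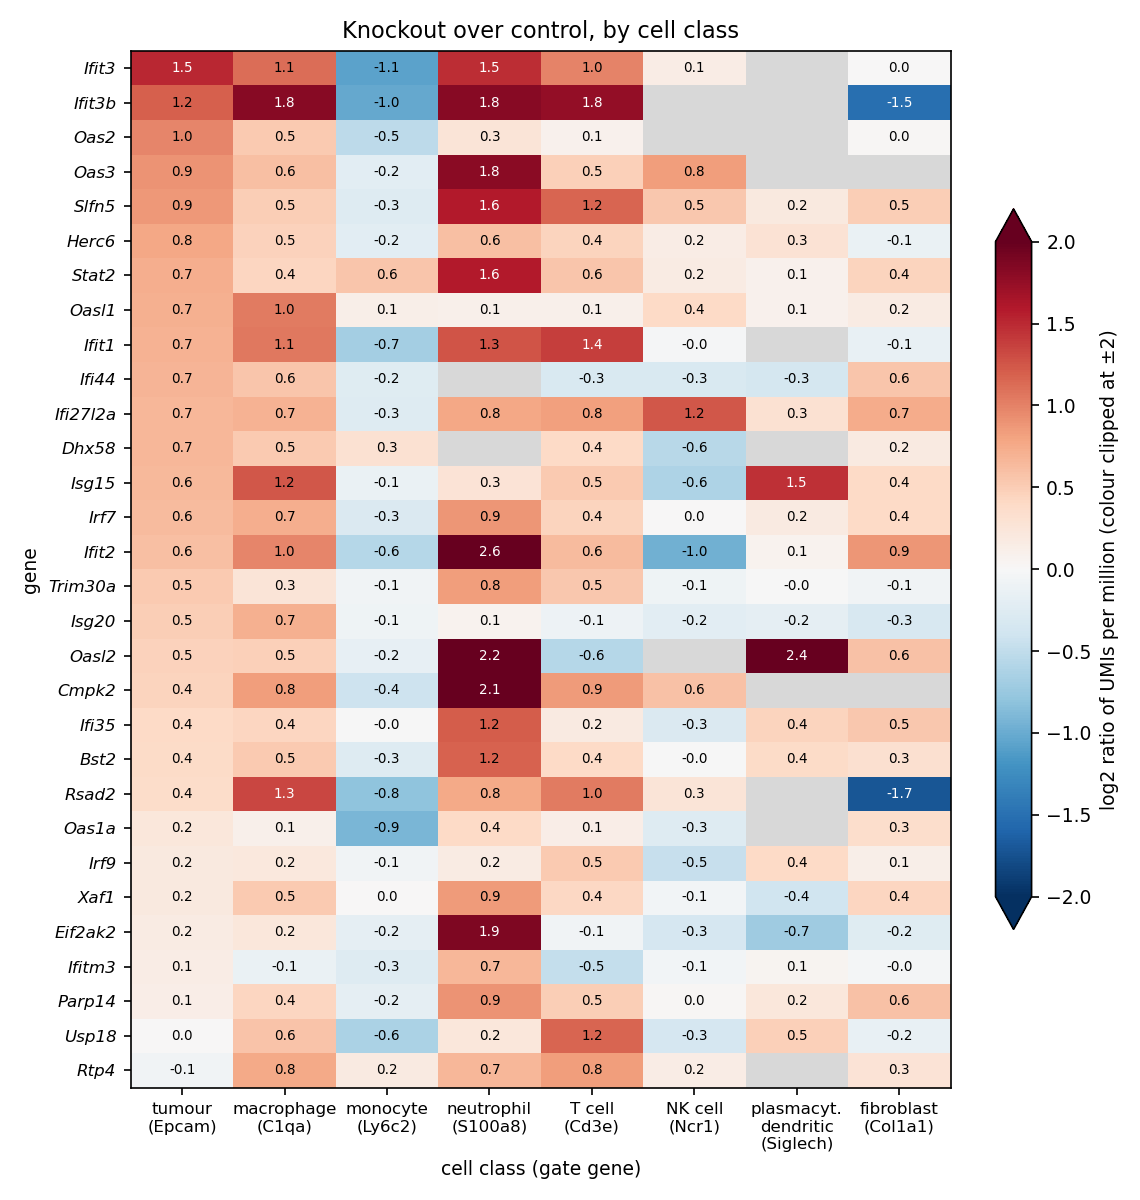
Log2 ratio of CPM, knockout over control, for 30 genes (rows, ordered by the tumour-cell ratio) in 8 cell classes (columns), with grey where a gene had under 20 UMIs over both libraries. Tumour, macrophage, neutrophil and T cell columns are mostly red (higher in the knockout library), and the monocyte column is mostly blue, with Ifit3 at -1.06.

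In macrophages, which take up debris and shape the tumour stroma, the same direction was measured. Of the 30 genes, 13 were at least 1.5-fold higher in the knockout library and none lower, with a median log2 ratio of 0.54 against 0.01 over all genes. Of all genes tested in macrophages, 9.12% were that much higher and 4.10% lower, and 4.28% were higher among genes with at least the UMIs of the least abundant member. Ifit3b led on 26 and 65 UMIs (log2 ratio 1.82, interval 1.14 to 2.54). Rsad2 was at 101 CPM in control and 253 CPM in knockout macrophages (1.33, interval 1.26 to 1.40), Isg15 at 133 and 314 CPM (1.24) and Ifit3 at 10.1 and 21.8 CPM (1.12).

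The signalling members stood between. Irf7 was at 119 and 197 CPM (0.73), Usp18 at 16.6 and 24.7 CPM (0.58), Stat2 at 64.9 and 87.8 CPM (0.44) and Irf9 at 46.4 and 53.7 CPM (0.21). Bst2 was at 214 and 307 CPM (0.52). The lowest were Oas1a (0.11) and Ifitm3, which was lower in the knockout library at 1563 and 1418 CPM (-0.14). The 3 clusters with enough macrophages of both libraries to compare had positive medians: 0.52 in cluster 4 (led by C1qc and Arg1), 0.28 in cluster 7 (led by Retnla and Plac8) and 0.91 in cluster 17 (led by Ctsk and Acp5). The libraries filled these clusters unequally: cluster 4 held 84.2% of control and 60.4% of knockout macrophages, cluster 7 held 5.60% and 14.5%, and cluster 17 held 10.2% and 24.5%. Cluster 7 had the highest summed level of the 27 members, 2538 and 3239 CPM, and monocyte markers in the whole gate were at 486 and 795 CPM. Their part in the pooled ratios was not tested. As in tumour cells, the difference was spread over cells: at 2000 UMIs a knockout macrophage had the higher sum in 64.0% of pairs, and the ratio of means was 1.67 with all thinned cells and 1.75 without the top 5%. Thinning left out 62 control and 133 knockout macrophages as too shallow. The cells of cluster 17, gated or not, had a median of 1912 UMIs.

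Monocytes ran the other way. None of the 30 genes was at least 1.5-fold higher in the knockout library, where 12.7% of all genes tested in monocytes were, and 6 were at least 1.5-fold lower, where 6.94% of all genes were. The median log2 ratio was -0.23 against 0.04 over all genes. Ifit3 was at 87.1 CPM in control and 41.7 CPM in knockout monocytes (-1.06, interval -1.47 to -0.65), Ifit3b at 21.5 and 10.6 CPM (-1.02), Oas1a at 120 and 64.1 CPM (-0.91), Rsad2 at 395 and 225 CPM (-0.81) and Usp18 at 72.1 and 46.6 CPM (-0.63). Ifit1 was the sixth (-0.68).

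Not every member followed in monocytes. Stat2 was at 89.3 and 132 CPM (0.56, interval 0.22 to 0.92), Dhx58 at 0.30 and Rtp4 at 0.18, the last pair with intervals that include 0. Isg15 was at 658 and 603 CPM (-0.13, interval -0.26 to 0.01), Irf9 at 82.8 and 79.1 CPM (-0.07), Irf7 at 517 and 424 CPM (-0.29), Bst2 at 394 and 331 CPM (-0.25) and Ifitm3 at 3017 and 2514 CPM (-0.26). A small number of cells bore on the lower values: without the 5% of monocytes with the largest share of these UMIs, 3 genes were 1.5-fold lower, and the summed level of 27 members was 3807 and 3669 CPM in place of 4846 and 4117 CPM. With doubled gate thresholds 10 genes were lower, and with the cluster that holds most monocytes as the class, 1 was.

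The choice of class mattered most here. Pooled, the C1qa and Ly6c2 gates had 19 genes at least 1.5-fold higher and none lower, with a median of 0.64. The share over all genes was not computed for the pooled cells. Monocytes had the higher level of the 27 summed members in both libraries, and they were 107 of 1482 such cells in the control and 332 of 1387 in the knockout library. In the pooled cells Ifit3 was at 0.97 and Rsad2 at 1.16.

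Neutrophils had the largest median of the 8 classes, on few UMIs per cell. Of 28 genes with at least 20 UMIs, 21 were at least 1.5-fold higher in the knockout library and none lower. Single genes scattered widely at this depth, with 26.1% of all genes tested in neutrophils that much higher and 17.9% lower. The median log2 ratio was 0.87 against 0.13 over all genes. Highest were Ifit2 with 20 and 48 UMIs (2.55, interval 1.77 to 3.38, with 26.5% of the UMIs in 1 cell), Oasl2 at 43.4 and 195 CPM (2.16) and Cmpk2 on 18 and 31 UMIs (2.07). Stat2 was at 47.0 and 141 CPM (1.58), Ifit3 on 14 and 16 UMIs at 1.48, Bst2 at 1.18, Irf7 at 122 and 225 CPM (0.88), Rsad2 at 420 and 714 CPM (0.77) and Ifitm3 at 1008 and 1590 CPM (0.66).

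The differences were smallest in neutrophils for Isg15 and a few other members. Isg15 stood at 1733 CPM in control and 2090 CPM in knockout neutrophils (0.27, interval 0.16 to 0.38). Usp18 (0.22), Irf9 (0.16), Oasl1 (0.10) and Isg20 (0.07) had intervals that include 0. Markers of monocytes in the neutrophil gate were at 277 CPM in the control and 839.5 CPM in the knockout library, and their part in these ratios was not tested. At 2000 UMIs per cell a knockout neutrophil had the higher sum in 63.4% of pairs, and the ratio of means was 1.70 with and without the top 5% of cells. Thinning left out 88 control and 21 knockout neutrophils as too shallow.

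In T cells 10 of 30 genes were at least 1.5-fold higher in the knockout library and none lower, with a median of 0.49 against -0.02. Markers of NK cells in this gate were at 782 CPM in the control and 126 CPM in the knockout library, and their part in these ratios was not tested. Of all genes tested in T cells, 8.49% were that much higher and 8.11% lower, and 8.08% were higher among genes with at least the UMIs of the least abundant member. Ifit3b (13 and 71 UMIs, 1.75), Ifit1 at 22.9 and 60.1 CPM (1.39, interval 1.07 to 1.72) and Slfn5 at 30.2 and 67.9 CPM (1.17) led. Usp18, at 0.01 in tumour cells, was at 13.8 and 30.7 CPM here (1.16, interval 0.73 to 1.6). Rsad2 was at 9.59 and 19.6 CPM (1.03), Ifit3 at 10.1 and 20.1 CPM (1.00), Stat2 at 0.56, Isg15 at 94.7 and 136 CPM (0.52), Irf9 at 0.52, Irf7 at 0.44 and Bst2 at 0.40.

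Lowest in T cells were Oasl2 on 23 UMIs in all (-0.57, interval -1.88 to 0.75), Ifitm3 at 210 and 150 CPM (-0.48) and Ifi44 (-0.30). At 2000 UMIs per cell the ratio of mean sums over the 27 members was 1.43, and it was 1.35 without the top 5% of cells and 1.25 without the top 25%. Over all 30 members it went the other way, from 1.47 to 1.51 and 1.62. For the 27 members, 0.625% of control and 4.22% of knockout cells exceeded the control library's 99th percentile. Leaving out the 5% of cells with the largest share gave 18 genes past 1.5-fold, and clusters in place of gates gave 16. Clusters also differed in mix: cluster 9, led by Themis and Cd28, held 20% of the T cells in the control and 54.5% in the knockout library. Cluster 12, led by Cd8a and Gzmf, held 33.9% and 12.6%, and cluster 14, led by Il2ra and Foxp3, 23.1% and 28.1%. Cluster 20, led by Cd163l1 and Il17a, had 120 control and 18 knockout cells in all and was not compared. The part of this mix in the pooled ratios was not tested. The medians within the compared clusters were all below the pooled one: 0.36 in cluster 9, 0.15 in cluster 12 and 0.24 in cluster 14. Summed levels of the 27 members there were 1149 and 1565, 629 and 622, and 1206 and 1409 CPM. Ifit3 was higher in the knockout library in cluster 9 (1.47, on 8 and 108 UMIs) and at -0.23 and -0.31 in clusters 12 and 14, on 15 and 9 and on 9 and 20 UMIs.

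NK cells were near balance. Of 27 genes with at least 20 UMIs, 2 were at least 1.5-fold higher and 2 lower in the knockout library, where 11.9% and 8.13% of all genes tested in NK cells were, and the median was -0.02. Ifi27l2a was at 43.9 and 104 CPM (1.25, interval 0.75 to 1.78, with 15.8% of its UMIs in 1 cell), followed by Oas3 (0.84) and Cmpk2 (0.58) with intervals that include 0. Ifit2 was at 39.1 and 20.1 CPM (-0.96, interval -1.58 to -0.30) and Isg15 at 97.6 and 63.6 CPM (-0.62, interval -0.99 to -0.23), although Isg15 turned to 0.058 when called doublets were kept. Dhx58 (-0.56), Irf9 (-0.47), Usp18 (-0.33), Ifitm3 (-0.06), Bst2 (-0.01), Irf7 (0.01), Ifit3 (0.15), Stat2 (0.17) and Rsad2 (0.26) all had intervals that include 0.

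Plasmacytoid dendritic cells, which are specialised interferon producers, held 24 control cells, and 20 genes reached 20 UMIs. Of these, 2 were at least 1.5-fold higher and 1 lower in the knockout library, where 14.2% and 14.1% of all genes tested in them were, and the median was 0.19. Oasl2 rested on 3 and 67 UMIs (2.38, interval 0.77 to 4.69) and Isg15 on 15 and 177 UMIs (1.46, interval 0.69 to 2.32, with 23.4% of its UMIs in 1 cell). Isg15 turned to -0.23 when called doublets were kept, and tumour-cell Isg15 scaled by the epithelial markers in this class would give 10.9 of its 43.3 CPM in the control and 12.3 of its 119 CPM in the knockout library. Bst2, also a marker of these cells, was at 1727 and 2255 CPM (0.38, interval 0.26 to 0.51). Usp18 (0.48), Irf9 (0.40), Irf7 (0.18), Stat2 (0.08), Ifitm3 (0.05), Ifi44 (-0.35), Xaf1 (-0.40) and Eif2ak2 (-0.71) had intervals that include 0. Ifit3 had no UMI in the control and 1 in the knockout library, and Rsad2 had 2 and 10.

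In fibroblasts, which make the tumour's collagen matrix, 4 of 28 genes were at least 1.5-fold higher and 2 lower, where 16.4% and 7.65% of all genes tested in fibroblasts were, and the median was 0.23 against 0.09. Ifit2 (0.89, interval -0.03 to 1.86), Ifi27l2a at 264 and 442 CPM (0.74) and Parp14 (0.59) led. Rsad2 (28 and 9 UMIs, -1.70) and Ifit3b (57 and 21 UMIs, -1.51) were lowest, followed by Isg20 (-0.31). For both genes the UMIs were concentrated: 1 cell held 51.4% of the Rsad2 UMIs and 1 held 53.8% of those of Ifit3b. Without the cell with most of these UMIs in each library, Ifit3b was at 0.37, and 12 genes were at least 1.5-fold higher. Stat2 was at 0.45, Isg15 at 357 and 473 CPM (0.40), Irf7 at 0.39, Bst2 at 0.32, Irf9 at 0.11, Ifit3 at 49.6 and 50.04 CPM (0.01), Ifitm3 at -0.04 and Usp18 at -0.15.

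The Fscn1 gate was too small for a comparison, and the cluster led by Ccl22 and Ccr7 (28 control and 74 knockout cells), taken in its place after the data were seen, had a median of 0.10. In it Rsad2 was on 38 and 7 UMIs (-3.60, interval -5.01 to -2.42), Oasl1 on 89 and 84 UMIs (-1.24), Isg15 on 71 and 172 UMIs (0.12), and Ifit3 had no UMI in either library.

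**Figure D4:**
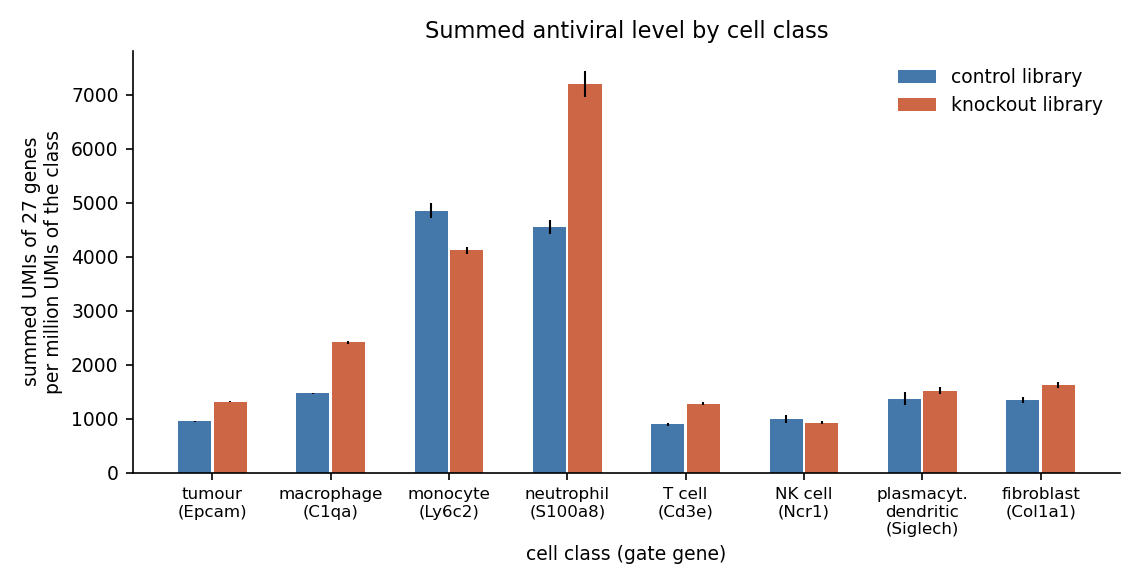
Summed level of 27 antiviral genes in CPM of the class (linear axis from 0) in control and knockout cells of 8 classes, with exact 95% Poisson intervals (counting error only). Monocytes and neutrophils have the tallest bars in both libraries, and the knockout bar is lower in monocytes (4846 against 4117 CPM) and NK cells (991 against 923 CPM).

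Of the 8 classes, monocytes and neutrophils had the highest summed levels of these genes in both libraries. The summed level of the 27 members was 4846 CPM in control monocytes and 4548.5 CPM in control neutrophils, and between 896 and 1465 CPM in the other 6 classes. In the knockout library neutrophils were first at 7192 CPM, then monocytes at 4117 and macrophages at 2413 CPM, and NK cells were last at 923 CPM. Tumour cells went from 949 to 1316 CPM, T cells from 896 to 1272, plasmacytoid dendritic cells from 1363 to 1513 and fibroblasts from 1341 to 1623.5 CPM. For NK cells the interval of the log2 ratio of sums was -0.21 to 0.01. Isg15 was highest in neutrophils in both libraries and Irf7 in monocytes, whereas Stat2 was highest in plasmacytoid dendritic cells, at 165 and 174 CPM.

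The other genes of the pathway were described from lists of named genes. Of 21 interferon ligands, Ifng was the most detected, with 1031 and 1722 UMIs in T cells (241 and 249 CPM, 0.04) and 120 and 587 UMIs in NK cells (146 and 171 CPM, 0.23, interval -0.06 to 0.52). Ifnb1, which encodes interferon beta, had 55 and 43 UMIs in macrophages. Of 25411555 and 17992656 macrophage UMIs in all, that is a log2 ratio of 0.14. In tumour cells Ifnb1 had 4 and 7 UMIs. Both receptor chains for type I interferon were lower in knockout tumour cells: Ifnar1 was at 24.3 and 21.3 CPM (-0.19) and Ifnar2 at 71.4 and 52.6 CPM (-0.44). Tyk2 was at 7.81 and 10.6 CPM (0.44). Of 48 further interferon-stimulated genes measured in tumour cells, 12 were past 1.5-fold in the knockout direction, where 20.2% of all genes were, and 1 in the other, and the median was 0.28.

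Interferon gamma targets, which include guanylate-binding proteins, immunity-related GTPases and antigen-processing genes, were also higher in tumour cells, macrophages, neutrophils and T cells. At least 1.5-fold higher were 13 of 21 in tumour cells (median 0.67), where 20.2% of all genes were, and 13 of 20 in macrophages (0.67), where 9.12% were. In neutrophils 15 of 16 were (1.20), beside 26.1% of all genes, and in T cells 10 of 19 (0.59), beside 8.49%. Iigp1, an immunity-related GTPase, was at 158 and 319 CPM in tumour cells (1.01), and Cd274, the gene of the T cell inhibitory ligand PD-L1, at 20.2 and 54.9 CPM (1.44). Cxcl10, a chemokine, was at 109 and 111 CPM in tumour cells (0.02, interval -0.01 to 0.06). Irf1 and Socs1 stand in this list and also among the signalling genes, and several of its genes respond to both kinds of interferon.

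In monocytes the lists had medians of opposite sign. Their gamma targets were higher in the knockout library, 9 of 20 by at least 1.5-fold (12.7% of all genes) and none lower, and had a median of 0.51, while the median of the antiviral genes was -0.23. Iigp1 was at 47.3 and 180 CPM (1.92, interval 1.48 to 2.40), Ciita, the master switch of MHC class II genes, at 43.0 and 127 CPM (1.56) and Cxcl9 at 330 and 698 CPM (1.08). Cxcl10, which both kinds of interferon induce, was lower at 384 and 274 CPM (-0.49, interval -0.66 to -0.31), as was Slfn4 of the further stimulated genes at 190 and 77.6 CPM (-1.29). In fibroblasts 10 of 19 gamma targets were higher (median 0.60, Cxcl9 at 2.28), beside 4 of 28 antiviral genes and 16.4% of all genes. In plasmacytoid dendritic cells 8 of 18 gamma targets were higher and 2 lower (median 0.55), beside 14.2% and 14.1% of all genes and an antiviral median of 0.19. NK cells had medians near 0 for both lists. The 12 housekeeping genes had medians from -0.15 to 0.25 over the 8 classes.

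**Figure D5:**
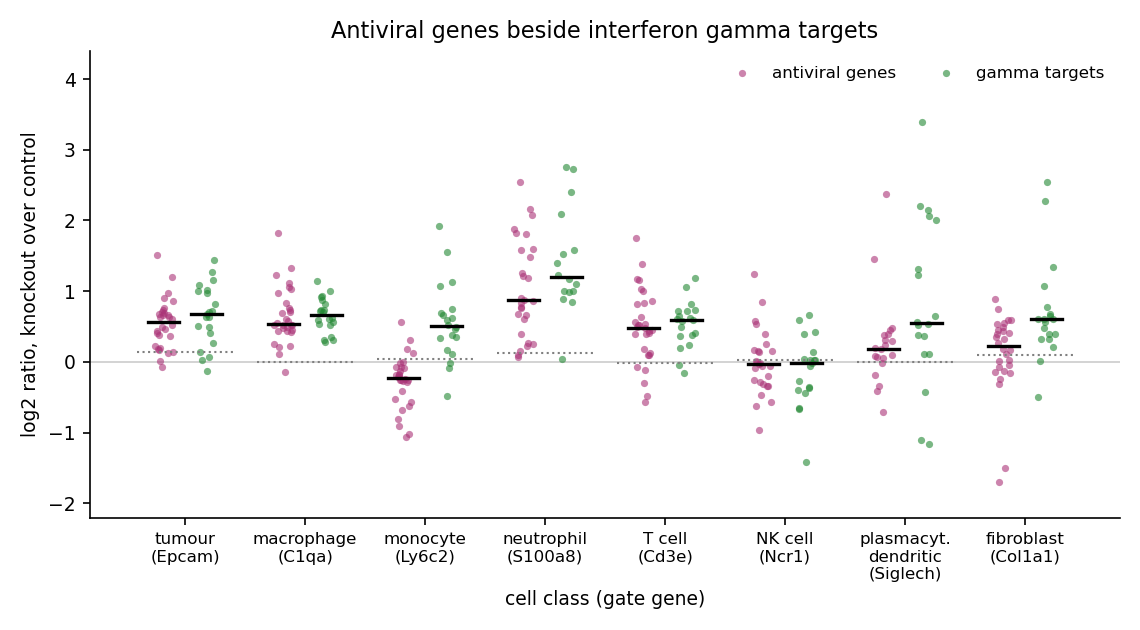
Log2 ratio, knockout over control, of each antiviral gene and each interferon gamma target with at least 20 UMIs, by cell class. Black bars are medians and dotted lines the median over all genes tested. In monocytes the antiviral median is -0.23 and the gamma target median 0.51, whereas in tumour cells they are 0.56 and 0.67.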

How the data were processed

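Single cells of 2 droplet libraries were analysed, 1 per group. The authors' deposited matrix holds UMI counts per gene and cell, made with Cell Ranger 2.1.1 on mm10 per the submitters' processing notes; the matrix header names version 6.0.1. Cells were assigned to libraries by the barcode suffix, which matches the library number in the labels and nothing else. The labels do not say how many mice each library pools.

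Cells below 500 UMIs or 200 genes, or with over 20% of UMIs from mitochondrial genes, were left out, and Scrublet doublets (2.72% of control and 3.13% of knockout cells) were removed. A class needed its gate gene at a minimum UMI count and a minimum per 10000 UMIs (Epcam 2 and 0.5, C1qa 3 and 5, Ly6c2 2 and 2, S100a8 10 and 50, Cd3e 1 and 1, Ncr1 1 and 0.5, Fscn1 2 and 2, Siglech 2 and 2, Col1a1 5 and 5) without the gates of conflicting classes. UMIs were summed per library and class, and classes with at least 20 cells in each library were compared. Higher or lower means a CPM ratio of at least 1.5-fold among genes with at least 20 UMIs over both libraries. No test was made, since each group is 1 library. The 95% intervals are Poisson for levels, conditional binomial for ratios and Clopper-Pearson for shares. For a count of 0 the level interval still has an upper limit, such as 4.50 CPM in control NK cells. On simulated data the ratio intervals for tumour cells were tested: they held the true ratio for 97.0% of 100 genes raised 2-fold, 93.0% of 100 lowered and 95.5% of 17402 unchanged genes. The simulated counts were Poisson draws, as the intervals assume. They therefore check the calculation only, and not variation between cells, clusters or tumours.

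Clusters were Leiden clusters (2000 variable genes, 30 components, 15 neighbours, resolution 1.0). Every gene of the set was named in tumour cells. In other classes the 3 highest, the 3 lowest, Ifit3, Isg15, Rsad2, Irf7, Stat2, Irf9, Usp18, Bst2 and Ifitm3 were named, and further genes where a count or a difference between classes turned on them. For 1 gene of the pathway lists, which is counted in them, the values are not reported here. The members and lists were chosen with earlier results of these data known. Alternatives covered cell filters, doublets, gates, clusters as classes, centring, equal weight per cell, UMI minimums, leaving out top cells and thinning. Added after seeing the data were the count of lower genes, tumour clusters alone or equally weighted, the C1qa and Ly6c2 gates pooled, leaving out 1 cell and the mature dendritic cluster. Software was Python 3.11.15 with numpy 2.4.6, scipy 1.17.1, pandas 2.3.3, scanpy 1.11.5, leidenalg 0.10.2 and matplotlib 3.10.9.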

Additional observations from a re-analysis of the deposited data

Results flagged for a closer look

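For 7 genes the ratio was past 1.5-fold upward in some classes and downward in others, each with a counting interval that excludes 0. With 1 library per group, the difference between classes was not tested, and these values are log2 ratios of single libraries.

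Monocytes were on the lower side for 5 of these genes. Ifit1 was at -0.68 in monocytes and at 0.69 in tumour cells, 1.06 in macrophages, 1.26 in neutrophils and 1.39 in T cells. Ifit3 was at -1.06 in monocytes and at 1.51, 1.12, 1.48 and 1.00 in those 4 classes. Ifit3b was at -1.02 in monocytes and -1.51 in fibroblasts, and at 1.19, 1.82, 1.82 and 1.75 in the same 4. Rsad2 was at -0.81 in monocytes and -1.70 in fibroblasts, and at 1.33 in macrophages, 0.77 in neutrophils and 1.03 in T cells. In fibroblasts the UMIs of Rsad2 and of Ifit3b were concentrated in few cells, so their intervals are too narrow. Without the cell with most member UMIs in each library, fibroblast Ifit3b was at 0.37. Usp18 was at -0.63 in monocytes and 1.16 in T cells.

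NK cells were on the lower side for the other two. Ifit2 was at -0.96 in NK cells, and at 0.60 in tumour cells, 0.98 in macrophages, 2.55 in neutrophils and 0.64 in T cells. Isg15 was at -0.62 in NK cells, and at 0.64 in tumour cells, 1.24 in macrophages and 1.46 in plasmacytoid dendritic cells. With called doublets kept, Isg15 turned to 0.058 in NK cells and to -0.23 in plasmacytoid dendritic cells.

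Eif2ak2 was past 1.5-fold in both directions too, at 1.87 in neutrophils and -0.71 in plasmacytoid dendritic cells, where its interval, -1.57 to 0.22, includes 0.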

How the results depend on the processing

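No paired analysis was possible because each group is 1 library. Of 104 recomputed counts of genes past 1.5-fold, 79 stayed within 1.5 times the reported count. Some of these could not move: all members in tumour cells, macrophages and monocytes were above both alternative UMI minimums. Shares over all genes were computed for the main setting only, so the recomputed counts have no such share beside them. The median log2 ratio stayed above 0 under every alternative run in tumour cells (0.40 to 0.63), macrophages (0.51 to 0.64), neutrophils (0.67 to 1.13), T cells (0.46 to 0.62) and plasmacytoid dendritic cells (0.10 to 0.43). It crossed 0 in monocytes (-0.35 to 0.64), NK cells (-0.20 to 0.16) and fibroblasts (-0.07 to 0.59).

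The counts of higher genes that moved were these. In tumour cells 7 were higher after centring and 9 with clusters weighted equally. In T cells 16 were higher with clusters as classes and 18 without the top 5% of cells. In NK cells 7 were higher with doublets kept, 1 with clusters as classes, 1 at a minimum of 50 UMIs and 4 without the top 5%. In plasmacytoid dendritic cells 1 was higher with doublets kept, 7 with clusters, 5 with equal weight per cell, 4 at a minimum of 5 UMIs and 6 without the top cell. In fibroblasts 0 were higher with doubled gates, 1 with clusters, 2 after centring, 13 without the top 5%, 2 of the 7 that could be measured after thinning and 12 without the top cell. In monocytes 1 was higher after thinning and 19 in the pooled C1qa and Ly6c2 gates, and the lower genes numbered 10 with doubled gates, 1 with clusters, 3 without the top 5% and 0 in the pooled gates.

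Of the ratios reported past 1.5-fold with an interval that excludes 0, those that changed sign were Isg15 with doublets kept (0.058 in NK cells, -0.23 in plasmacytoid dendritic cells), Ifit3b in monocytes with equal weight per cell (0.17) and Ifit3b in fibroblasts without the top cell (0.37). The pooled gates reversed the monocyte values of Ifit1 (0.98), Ifit3 (0.97), Ifit3b (1.44), Rsad2 (1.16), Oas1a (0.12) and Usp18 (0.61), where the added cells are macrophages. For the others the cause was not tested. Smaller ratios changed sign too, among them tumour-cell Rsad2 (-0.19 with clusters weighted equally). The share of pairs with the knockout tumour cell higher was 59.8% at 2000 UMIs. The mature dendritic gate gave no value, with 15 control cells. Few UMIs limit the neutrophil, NK, plasmacytoid dendritic and fibroblast ratios most.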

Other observations

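The cells that fell in no gated class, 1754 in the control and 1698 in the knockout library, also carried more of the antiviral genes in the knockout library. The summed level of the 27 members was 1113 CPM in the control and 1828 CPM in the knockout library, and the median log2 ratio of the 30 genes was 0.78. Over all cells used the median was 0.63, against 0.15 over all genes, and for the cells in no class the all-gene median was not computed. Both pools mix cell types, whose shares differed between the libraries. Of all cells used, gated monocytes were 1.42% in the control and 4.92% in the knockout library, and neutrophils 5.39% and 2.09%. The mix of the cells in no class was not described. Its part in these pooled values was not tested, nor was that of the mix of all cells.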
